A study of Mus musculus with 12 samples.

Results

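Acute-phase proteins are secreted proteins whose synthesis changes in inflammation, and 10 genes of this kind were followed in the mouse heart: Saa3, Lcn2, Serpina3n, Lrg1, Lbp, Ptx3, Orm1, Pglyrp1, Slpi and Itih4. They were chosen by name, as 10 of the 12866 genes with values in every library, and not by a threshold on these values. Earlier results of these data were known when they were chosen, so their ranks and counts describe them and are no independent support. Heart RNA of wild-type C57BL/6 mice was sequenced after removal of ribosomal RNA, in 12 libraries with 1 mouse each. The 4 LPS+XJDHT mice received lipopolysaccharide (LPS) at 10 mg/kg and the preparation labelled XJDHT at 50 mg/kg per day. The 4 LPS mice received LPS at 10 mg/kg and saline, and the 4 Control mice received saline alone, all over 3 days. The labels give neither the age nor the sex of the mice, nor how long after the last LPS dose the hearts were taken. LPS is the endotoxin of Gram-negative bacteria and makes a systemic inflammation that stands as a model of sepsis without live bacteria. XJDHT is known from the study as Xijiao Dihuang decoction, a Chinese herbal formula.

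In the textbook acute-phase response, interleukin 1, interleukin 6 and tumour necrosis factor act through NF-kB, STAT3 and C/EBP factors to switch on secreted proteins. The liver is the main source in blood, but fibroblasts, endothelium, macrophages, neutrophils and cardiomyocytes can make some of the same proteins locally. The products bind bacterial lipids, sugars or iron carriers, block proteases, or carry small molecules and lipids in plasma.

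The deposited values were in FPKM, in which fragments are divided by the length of the transcript and the depth of the library, so levels of different genes are per length. The libraries held 73.9 to 78.0 M fragments (M stands for mega), as worked out from the steps between low values. Markers of cardiomyocytes, the muscle cells of the heart, were abundant in every group, with a summed level of 8334 ± 1220 FPKM in LPS+XJDHT, 8530 ± 1007 FPKM in LPS and 18150 ± 1103 FPKM in Control (SD, n = 4 each). Library LPS+XJDHT 2 stood apart: its 4 Y-linked genes summed to 0.205 FPKM, against 21.2 to 62.2 FPKM in the other 11 libraries, and results that rest on it are given with and without it. Of the LPS+XJDHT group it also had the highest summed cardiomyocyte markers and the lowest summed fibroblast, endothelial, neutrophil, monocyte and macrophage, hepatocyte and small intestine markers. In whole-tissue RNA, a change in the number of cells of a type and a change in RNA per cell cannot be told apart. Below, ± after a mean is the SD over 4 libraries and ± after a log2 fold change is its SE. Fold changes and adjusted p are from limma on log2(FPKM + 1), fitted over 11509 genes with Benjamini-Hochberg adjustment, and a gene is said to rise or fall at an adjusted p under 0.05. A ratio of mean FPKM is given beside them where the pseudocount of 1 compresses the change of a low gene.

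All 10 genes had a higher mean after LPS than in Control, and 9 of them rose. The background is high, since 26.6% of all genes tested rose in this comparison, 3063 genes beside 1384 that fell (2132 and 2131 with median-ratio scaling). The libraries of LPS and Control did not overlap for 8 members, beside 25.3% of all genes that were higher without overlap. The members' median log2 fold change was 3.53, against 0.16 over all 11509 genes. Saa3, Lcn2 and Serpina3n had the 3 largest log2 fold changes of all genes tested, Ptx3 ranked 10, Lrg1 15 and Lbp 78. Pglyrp1 ranked 131, Orm1 565 and Slpi 906. Itih4 did not pass and ranked 4034. None of the 10 was called between LPS+XJDHT and LPS. Orm1, Pglyrp1 and Slpi reached 1 FPKM in libraries of LPS-treated mice alone. They entered the test through the groups in which they are high and had to differ. Their calls, their ranks and their part in the counts and the median add no support. To be tested a gene needed 1 FPKM in 4 libraries. Ptx3 had it in 10, of which 2 were Control, so it too entered the test only with LPS-treated libraries. Its call, its rank and its part in the counts and the median add no support either. Since the members were chosen with earlier results of these data known, the ranks and the median describe this list only.

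**Figure D1:**
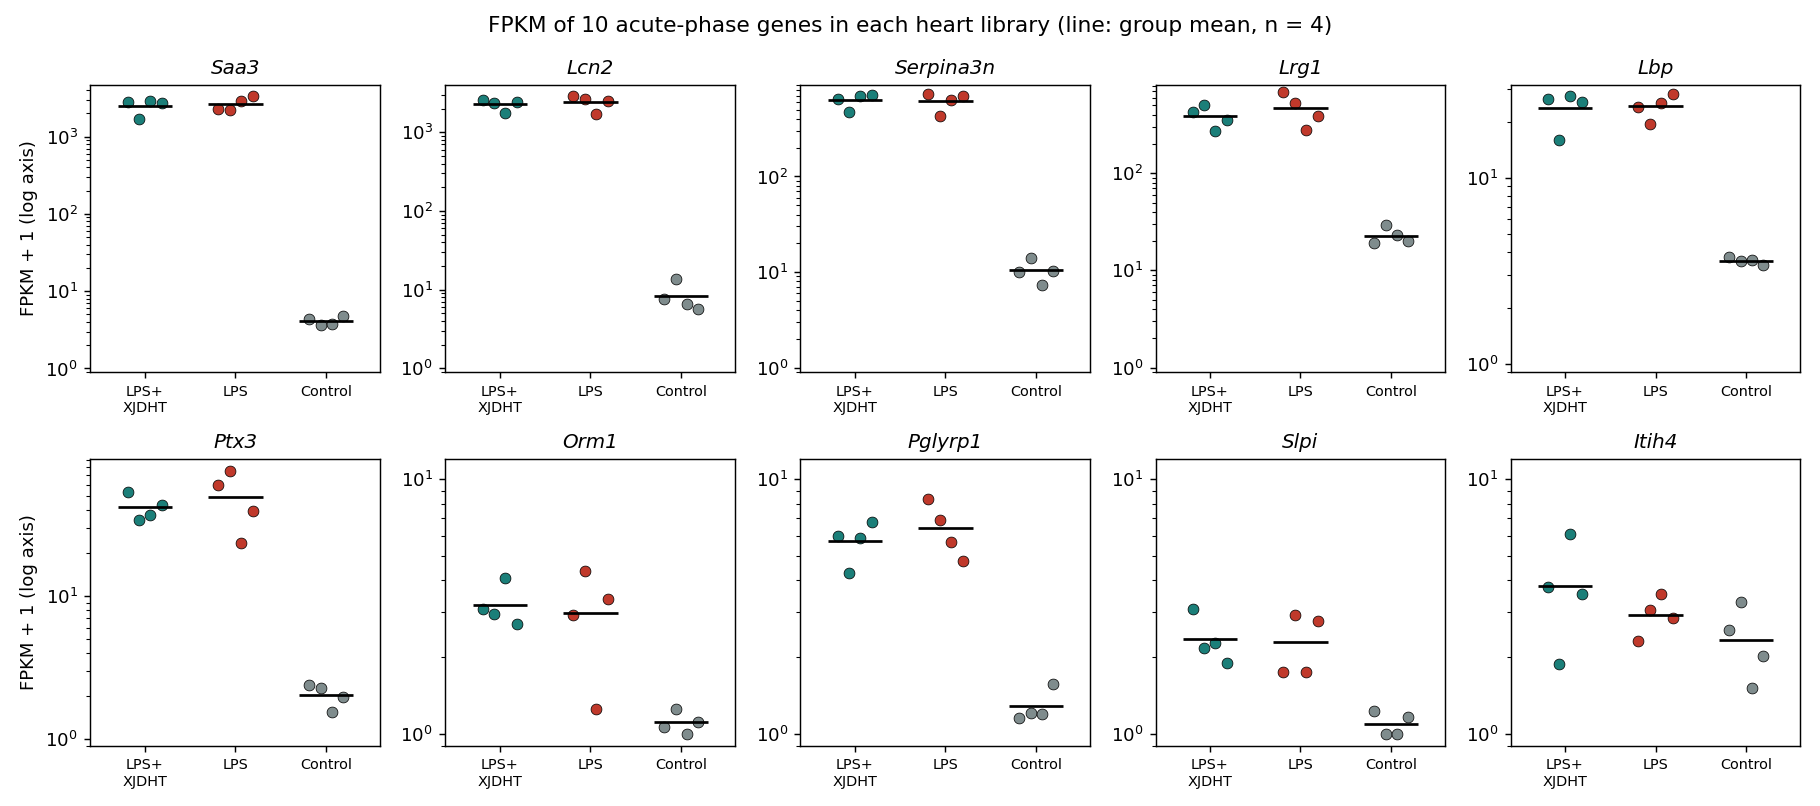
FPKM + 1 of each of the 10 genes on a log axis, with LPS+XJDHT, LPS and Control from left to right; points are libraries and lines are group means. The points of LPS+XJDHT and LPS overlap for all 10 genes, and for 8 of the 10 every LPS point lies above every Control point.

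The 250 bases before a RefSeq start of transcription are shown for the 3 genes with the largest rise and 3 others with a motif match. RefSeq on build GRCm38.p6 had entries for 8 of the 10 genes. The windows of Lcn2, Pglyrp1 and Slpi lie inside the gene spans given below, and that of Saa3 overlaps its span in part. Sequences run 5′ to 3′ on the gene's strand, and capitals mark matches to an NF-kB, C/EBP or STAT motif. The positions are chr7:46715677-46715926 (minus strand) for Saa3, chr2:32387740-32387989 (minus) for Lcn2, chr12:104406458-104406707 (plus) for Serpina3n, chr7:18884440-18884689 (plus) for Pglyrp1, chr2:164356508-164356757 (minus) for Slpi and chr14:30886226-30886475 (plus) for Itih4.
Saa3: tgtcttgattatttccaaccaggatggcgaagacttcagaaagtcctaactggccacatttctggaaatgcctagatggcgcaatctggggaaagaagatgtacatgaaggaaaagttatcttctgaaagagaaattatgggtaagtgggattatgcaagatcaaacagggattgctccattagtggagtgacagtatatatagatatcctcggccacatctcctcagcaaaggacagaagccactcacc
Lcn2: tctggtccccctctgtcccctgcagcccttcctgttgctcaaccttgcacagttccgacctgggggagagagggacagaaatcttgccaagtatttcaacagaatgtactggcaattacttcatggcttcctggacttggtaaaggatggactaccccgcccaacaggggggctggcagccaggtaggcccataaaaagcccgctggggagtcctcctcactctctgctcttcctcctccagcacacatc
Serpina3n: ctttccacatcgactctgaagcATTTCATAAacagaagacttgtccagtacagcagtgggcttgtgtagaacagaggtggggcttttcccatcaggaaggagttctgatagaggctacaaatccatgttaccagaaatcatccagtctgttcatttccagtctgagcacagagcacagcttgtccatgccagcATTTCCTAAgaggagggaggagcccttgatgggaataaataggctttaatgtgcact
Pglyrp1: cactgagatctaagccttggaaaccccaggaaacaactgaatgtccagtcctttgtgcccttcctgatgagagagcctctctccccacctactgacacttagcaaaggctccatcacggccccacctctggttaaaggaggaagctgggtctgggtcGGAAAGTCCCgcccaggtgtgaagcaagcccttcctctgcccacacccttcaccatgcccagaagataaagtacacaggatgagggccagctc
Slpi: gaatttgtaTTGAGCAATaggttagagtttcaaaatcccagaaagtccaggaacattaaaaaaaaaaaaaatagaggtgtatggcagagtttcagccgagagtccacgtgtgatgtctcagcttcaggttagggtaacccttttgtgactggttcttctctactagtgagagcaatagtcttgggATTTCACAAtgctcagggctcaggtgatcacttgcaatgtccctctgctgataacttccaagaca
Itih4: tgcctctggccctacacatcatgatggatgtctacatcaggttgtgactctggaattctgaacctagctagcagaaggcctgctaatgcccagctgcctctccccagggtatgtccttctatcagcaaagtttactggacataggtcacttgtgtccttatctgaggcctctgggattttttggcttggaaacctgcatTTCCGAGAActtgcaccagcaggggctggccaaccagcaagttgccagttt

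Motifs were searched on both strands of this window and could overlap. The C/EBP motif TTNNGNAAT stood in 2 of the 8 members, Serpina3n and Slpi, with 2 matches in each. Over all 27025 promoters of the table, 10.3% held it. An NF-kB motif, searched by name, was found in Pglyrp1 alone of the 8, against 7.01% of all promoters. The STAT motif TTCNNNGAA was in Itih4 alone, against 7.18%. Neither TGANTCA nor TATAAA, which stood in 6.87% and 13.0% of all promoters, was in any of the 8. The windows of Saa3 and Lcn2, the genes with the largest rise, held none of the letters searched, and neither did those of Lrg1 and Ptx3. That a gene holds a match is a description of its letters and says nothing of which factor bound there.

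Among the proteins that meet bacteria directly, Saa3 reached the highest mean. Saa3 (ENSMUSG00000040026, mm10 chr7:46711998-46715700, minus strand) encodes a serum amyloid A, a lipid-binding apolipoprotein of high-density lipoprotein that in mice is made mostly outside the liver. It measured 2823, 1668, 2858 and 2753 FPKM in the LPS+XJDHT libraries, 2298, 2206, 2902 and 3317 FPKM in LPS and 3.39, 2.64, 2.81 and 3.83 FPKM in Control. Every library of an LPS-treated mouse lay far above every Control library, and within LPS+XJDHT the second library was far below the other 3. Mean Saa3 was 2681 ± 525 FPKM in LPS against 3.17 ± 0.544 FPKM in Control, a ratio of 846 (log2 fold change 9.32 ± 0.19, adjusted p = 9.2e-11). By mean FPKM it was gene 24 of 12866 in LPS and gene 7239 in Control.

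Lcn2 (ENSMUSG00000026822, chr2:32384633-32388252, minus strand) encodes lipocalin 2, which binds bacterial siderophores and so withholds iron. Its level was 2552, 2334, 1754 and 2443 FPKM in LPS+XJDHT, 2919, 2632, 1685 and 2462 FPKM in LPS and 6.55, 12.7, 5.62 and 4.66 FPKM in Control. LPS+XJDHT 3 and LPS 3 were the lowest of their groups, and neither group came near Control. The LPS mean was 2425 ± 528 FPKM against 7.39 ± 3.64 FPKM in Control (ratio 328, log2 fold change 8.23 ± 0.26, adjusted p = 3.4e-09).

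Lbp, Ptx3 and Pglyrp1 bind microbial surfaces. Lbp (chr2:158306493-158332852, plus strand) encodes lipopolysaccharide-binding protein, which passes LPS to CD14 and thereby to TLR4. Lbp was at 25.4, 14.9, 26.5 and 24.4 FPKM in LPS+XJDHT, 23.0, 18.4, 24.3 and 27.4 FPKM in LPS and 2.73, 2.55, 2.63 and 2.39 FPKM in Control. The Control libraries were nearly level, while LPS+XJDHT 2 was the lowest of the LPS-treated mice. Lbp rose with a log2 fold change of 2.75 ± 0.17 in LPS against Control (adjusted p = 8.9e-07, ratio of means 9.04). With every annotated transcript listed for LPS and Control the change was 2.45. Ptx3 (chr3:66219910-66225805, plus strand) encodes the long pentraxin 3, a soluble pattern-recognition molecule that binds microbes and complement C1q and is made at sites of inflammation. It was at 52.5, 33.1, 36.2 and 42.7 FPKM in LPS+XJDHT, 58.5, 74.4, 22.5 and 38.7 FPKM in LPS and 1.40, 1.28, 0.542 and 0.981 FPKM in Control. The LPS libraries spread by more than the LPS+XJDHT libraries, with LPS 3 the lowest and LPS 2 the highest. Ptx3 lies within Veph1, which runs on the other strand and was not measured in all libraries, so reads of the 2 genes may be mixed if strand was not used. Ptx3 rose with a log2 fold change of 4.49 ± 0.31 (adjusted p = 1.8e-06, ratio of means 46.3).

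Pglyrp1 (chr7:18871331-18890459, plus strand) encodes peptidoglycan recognition protein 1, a bactericidal protein stored in neutrophil granules. Its level was 4.96, 3.27, 4.88 and 5.80 FPKM in LPS+XJDHT, 7.36, 5.90, 4.67 and 3.77 FPKM in LPS and 0.153, 0.211, 0.204 and 0.578 FPKM in Control. Control 4 was well above the other 3 Control libraries but below every library of an LPS-treated mouse. The LPS mean was 5.43 ± 1.56 FPKM against 0.286 ± 0.196 FPKM in Control, resting on 1144 and 61 fragments summed over 4 libraries. On the log2(FPKM + 1) scale the change was 2.30 ± 0.20 (adjusted p = 7.6e-06). With a pseudocount of 0.1 it was 3.91 and by limma-voom on recovered fragments 4.35.

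Of the protease inhibitors, Serpina3n rose to the level of abundant heart transcripts, Slpi rose at a low level and Itih4 did not pass the test. Serpina3n (ENSMUSG00000021091, chr12:104406729-104414329, plus strand) encodes a serine protease inhibitor, one of the mouse counterparts of human alpha-1-antichymotrypsin. It measured 641, 474, 700.4 and 705 FPKM in LPS+XJDHT, 721, 433, 638 and 686 FPKM in LPS and 9.04, 13.2, 6.36 and 9.30 FPKM in Control. LPS+XJDHT 2 and LPS 2 were the lowest of their groups, and all 8 lay far above Control. The mean was 619 ± 129 FPKM in LPS against 9.47 ± 2.82 FPKM in Control (ratio 65.4, log2 fold change 5.90 ± 0.21, adjusted p = 1.1e-08). Serpina3n stands among near-identical neighbours, so part of its reads may belong to other genes of its cluster, and the same holds for Saa3 and Orm1 in their families.

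Slpi (chr2:164354070-164389095, minus strand) encodes secretory leukocyte protease inhibitor, which blocks neutrophil elastase. It was at 2.10, 1.17, 1.27 and 0.895 FPKM in LPS+XJDHT, 0.757, 1.93, 0.752 and 1.77 FPKM in LPS and 0.227, 0, 0 and 0.162 FPKM in Control. Every LPS-treated mouse lay above every Control mouse, by little in absolute terms. The LPS and Control values rest on 346 and 26 fragments summed over 4 libraries. Slpi rose by 1.03 ± 0.21 on the log2(FPKM + 1) scale (adjusted p = 0.0026), by 2.92 with a pseudocount of 0.1 and by 4.95 with limma-voom, while the ratio of means was 13.4. Itih4 (chr14:30886476-30902353, plus strand) encodes inter-alpha-trypsin inhibitor heavy chain 4, a plasma glycoprotein of the liver that belongs to a family binding hyaluronan. Its level was 2.78, 0.889, 5.08 and 2.53 FPKM in LPS+XJDHT, 1.31, 2.06, 2.53 and 1.84 FPKM in LPS and 1.55, 2.29, 0.513 and 1.03 FPKM in Control. The 3 groups overlapped throughout, with the highest and the lowest LPS-treated library both in LPS+XJDHT. Between LPS and Control the log2 fold change of Itih4 was 0.36 ± 0.33 (adjusted p = 0.41).

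The remaining pair are plasma glycoproteins. Lrg1 (ENSMUSG00000037095, chr17:56119678-56122001, minus strand) encodes leucine-rich alpha-2-glycoprotein 1, which modulates transforming growth factor beta signalling in endothelium. It measured 425, 505, 272 and 353 FPKM in LPS+XJDHT, 678, 523, 277 and 391 FPKM in LPS and 18.03, 28.0, 22.0 and 19.1 FPKM in Control. LPS 1 was the highest, and LPS+XJDHT 3 and LPS 3 were the lowest of their groups. Lrg1 was the most abundant of the 10 in Control, where its lowest library lay above the highest Serpina3n library, and it rose with a log2 fold change of 4.30 ± 0.27 after LPS (adjusted p = 8.6e-07, ratio of means 21.4). Orm1 (chr4:63344560-63348163, plus strand) encodes alpha-1-acid glycoprotein, a plasma carrier of basic drugs and lipids. It was at 2.08, 1.96, 3.09 and 1.71 FPKM in LPS+XJDHT, 1.92, 3.36, 0.250 and 2.39 FPKM in LPS and 0.0684, 0.258, 0 and 0.117 FPKM in Control. LPS 3 fell within the Control range, so for Orm1 the LPS and Control libraries overlapped. Its fragments numbered 112, 200, 15 and 137 in the LPS libraries and 4, 15, 0 and 7 in Control. Orm1 rose by 1.29 ± 0.31 on the log2(FPKM + 1) scale (adjusted p = 0.0070), by 3.05 with a pseudocount of 0.1 and by 4.39 with limma-voom.

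Setting the levels in order shows how unequal the group is. In LPS, Saa3 and Lcn2 came first and overlapped each other. Serpina3n and Lrg1 followed and overlapped, then Ptx3 and Lbp, which overlapped too. Pglyrp1 lay between these and the lowest set, Orm1, Itih4 and Slpi, whose libraries overlapped. No library of one of these 5 tiers reached the next. In Control the order was another: Lrg1, Serpina3n, Lcn2, Saa3, Lbp, Itih4, Ptx3, Pglyrp1, Orm1 and Slpi. Together the 10 genes summed to 5890 ± 679 FPKM in LPS+XJDHT, 6274 ± 652 FPKM in LPS and 47.3 ± 10.7 FPKM in Control. That was 0.987 ± 0.126% of all gene FPKM in LPS+XJDHT, 1.04 ± 0.126% in LPS and 0.00742 ± 0.00140% in Control. Saa3 and Lcn2 alone made up 81.3 ± 1.29% of the members' sum in LPS+XJDHT, 81.4 ± 2.49% in LPS and 22.1 ± 1.96% in Control.

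Set against LPS alone, LPS+XJDHT asks whether the decoction altered these genes in mice with endotoxin. None of the 10 passed the test, each with an adjusted p of 1.0, and none had an unadjusted p under 0.05 (the smallest was 0.41). The background is near 0 as well: 0.113% of all genes were called, 13 of 11509, and 551 had an unadjusted p under 0.05. The means of 4 members were higher and of 6 lower in LPS+XJDHT than in LPS, with a median log2 fold change of -0.06 against 0.03 over all genes. Libraries of the 2 groups overlapped for all 10 members, whereas 2.82% of all genes had no overlap.

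The intervals bound what these libraries can show. For Saa3 the mean was 2526 ± 573 FPKM in LPS+XJDHT and 2681 ± 525 FPKM in LPS, a log2 fold change of -0.10 with a 95% interval of -0.51 to 0.31. For Serpina3n it was 630.2 ± 108 FPKM in LPS+XJDHT and 619 ± 129 FPKM in LPS (0.03, interval -0.43 to 0.50). The Lcn2 change was -0.08 (-0.64 to 0.48), the Lbp change -0.05 (-0.42 to 0.33) and the Ptx3 change -0.12 (-0.80 to 0.55). Lrg1, with 389 ± 99.5 FPKM in LPS+XJDHT and 467 ± 173 FPKM in LPS, had the lowest value, -0.23 (-0.81 to 0.36). Among the low genes the changes were -0.15 (-0.59 to 0.28) for Pglyrp1, 0.23 (-0.46 to 0.92) for Orm1, 0.05 (-0.41 to 0.52) for Slpi and 0.28 (-0.44 to 1.00) for Itih4. Each interval held 0, and each also held differences in both directions, so the p-values do not show that the groups were alike.

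Without LPS+XJDHT 2 again none of the 10 was called. The values for Saa3 and Lbp then turned positive, at 0.09 and 0.14 on the log2 scale, so the sign of these 2 depended on that library. Serpina3n stood at 0.17 and Itih4 at 0.58, each with the sign it had with all libraries.

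**Figure D2:**
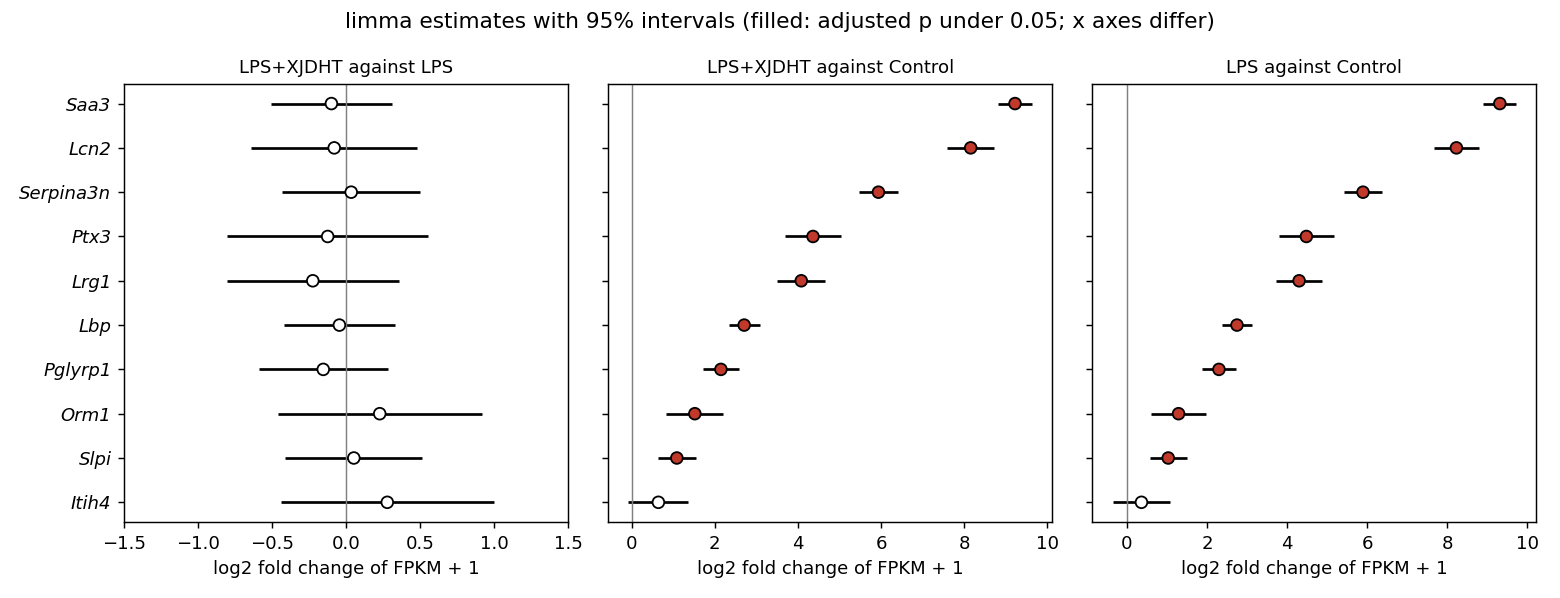
Log2 fold changes on the log2(FPKM + 1) scale with 95% intervals from limma for the 10 genes in each comparison, filled where the adjusted p was under 0.05. In LPS+XJDHT against LPS every interval spans 0, the lowest bound being -0.81 for Lrg1 and the highest 1.00 for Itih4.

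LPS+XJDHT was also compared with Control, which asks whether the genes were still raised in treated mice. Here 9 members rose and 0 fell in LPS+XJDHT, beside 28.5% of all genes that rose, and the median was 3.39 against 0.19 over all genes. The comparison shares its Control libraries with the one of LPS, so neither is independent of the other. Saa3 had a log2 fold change of 9.22 in LPS+XJDHT against Control and 9.32 in LPS against Control. For Lcn2 the values were 8.15 and 8.23, for Serpina3n 5.93 and 5.90, for Lrg1 4.08 and 4.30, for Ptx3 4.36 and 4.49, and for Lbp 2.71 and 2.75. In the same order Pglyrp1 had 2.15 and 2.30, Orm1 1.52 and 1.29, and Slpi 1.09 and 1.03. The libraries of LPS+XJDHT and Control did not overlap for 9 members, beside 30.2% of all genes that were higher without overlap. Here too Orm1, Pglyrp1 and Slpi entered the test through LPS-treated libraries alone, and Ptx3 entered only with such libraries. Their calls and their part in these counts and in the median add no support. Itih4 averaged 2.82 ± 1.73 FPKM in LPS+XJDHT against 1.35 ± 0.760 FPKM in Control and did not pass (log2 fold change 0.64, adjusted p = 0.14). Without LPS+XJDHT 2 its change was 0.94 and it passed (adjusted p = 0.024).

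Within the 8 LPS-treated mice the members did not rise and fall as one. LPS+XJDHT 2 was the lowest of the 8 libraries for 4 members, Saa3, Lbp, Pglyrp1 and Itih4, yet above the mean of the 8 for Lrg1. LPS 3 was the lowest for 4 others, Lcn2, Ptx3, Orm1 and Slpi, yet above the mean for Saa3. LPS 1 was the highest for Lcn2, Serpina3n, Lrg1 and Pglyrp1. In LPS+XJDHT 2 the summed cardiomyocyte markers were 10018 FPKM, the highest of its group, against 7116 to 8233 FPKM in the other LPS+XJDHT libraries. Its summed fibroblast markers were 979 FPKM, its neutrophil markers 75.6 FPKM, its monocyte and macrophage markers 164 FPKM and its hepatocyte markers 15.6 FPKM, each the lowest of its group. LPS 3 likewise had the highest summed cardiomyocyte markers of its group, 10009 FPKM, and the lowest neutrophil markers, 80.0 FPKM. Unlike LPS+XJDHT 2, it had the highest monocyte and macrophage markers of its group, 427 FPKM. The part of these cell types in the values of LPS+XJDHT 2 and LPS 3 was not tested.

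**Figure D3:**
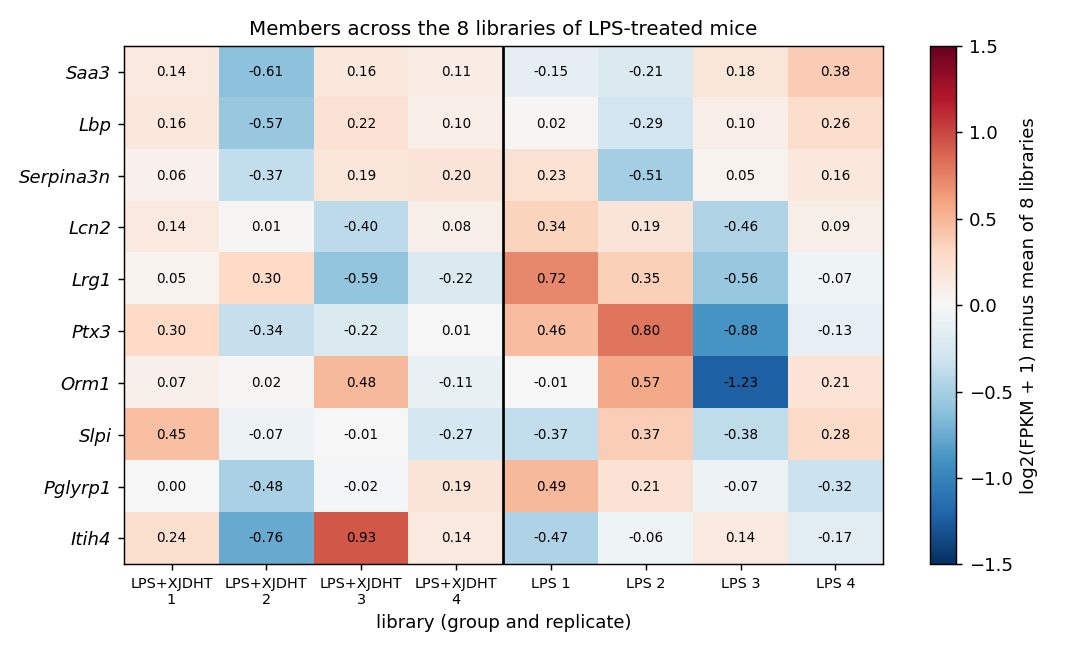
Deviation of each gene from its mean over the 8 LPS-treated libraries, on the log2(FPKM + 1) scale, with genes in rows and libraries in columns, LPS+XJDHT left of LPS. LPS+XJDHT 2 is low for Saa3 (-0.61) and Lbp (-0.57) and LPS 3 is low for Ptx3 (-0.88) and Orm1 (-1.23), while neither is low for all 10.

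All 45 pairs of members were compared over these 8 libraries with exact permutation tests, on the log2(FPKM + 1) scale. Saa3 and Lbp moved together (Pearson r = 0.96, exact permutation p = 0.00030, adjusted over the 45 pairs 0.013; Spearman rho = 0.86, exact permutation p = 0.011, adjusted 0.17). Their r was 0.87 without the 2 libraries farthest from the median of Saa3 and 0.96 after each group was centred on its own mean. Lcn2 with Lrg1 came next, with r = 0.88 (exact permutation p = 0.0025, adjusted 0.057) and rho = 0.83 (p = 0.015, adjusted 0.17), r = 0.71 without the 2 farthest libraries and 0.88 after centring. Only Saa3 with Lbp passed by adjusted r among the 45 pairs, and none passed by adjusted rho. The r of 0.85 for Serpina3n and Lbp (exact permutation p = 0.029, adjusted 0.26) rested on the 2 farthest libraries, without which it was -0.15. Saa3 and Lcn2, the 2 most abundant, showed no passing relation over these mice (r = -0.30, exact permutation p = 0.48).

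The files give values for single transcripts, which shows what kind of RNA was measured. Lcn2 had 6 transcripts with values in all libraries, and the coding ENSMUST00000050785 held most of its level in each group. Transcripts annotated with a retained intron made up 4.06, 5.28, 4.71 and 3.92% of Lcn2 FPKM in LPS+XJDHT, 5.88, 4.01, 4.20 and 4.36% in LPS and 17.5, 18.8, 22.4 and 8.98% in Control. All Control libraries were above all LPS-treated libraries. The mean share was 4.61 ± 0.857% in LPS against 16.9 ± 5.67% in Control (exact permutation p = 0.029, the smallest that 4 against 4 allows, and 0.086 adjusted over 6 tests of transcript shares). LPS+XJDHT, at 4.49 ± 0.627%, was not separated from LPS by the same exact permutation test (p = 0.80). The share depends on how the authors' quantification divided reads among transcripts.

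**Figure D4:**
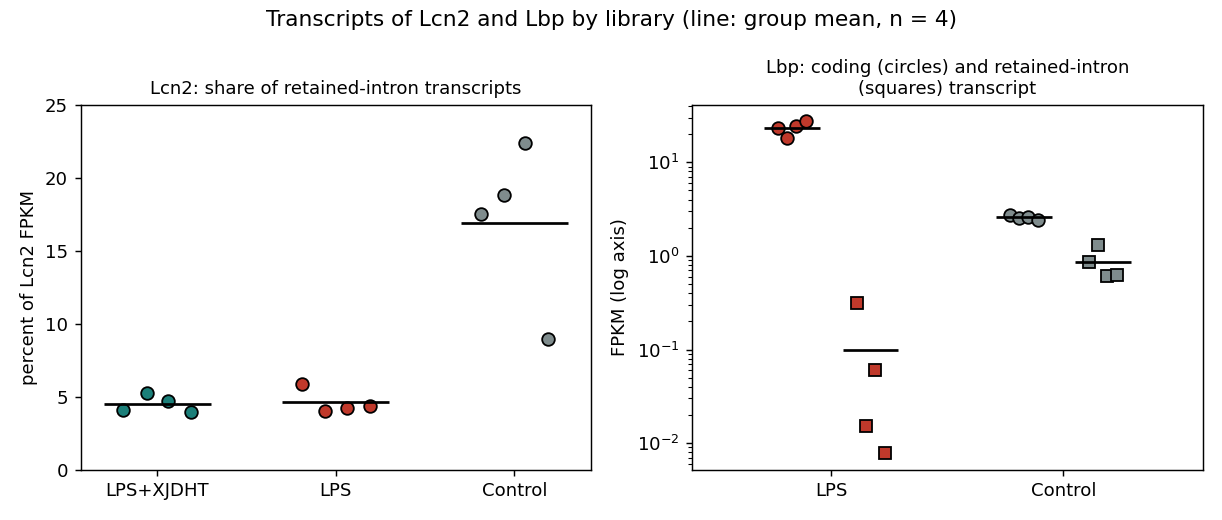
Left, percent of Lcn2 FPKM in retained-intron transcripts per library in LPS+XJDHT, LPS and Control, with means of 4.49%, 4.61% and 16.9%; right, FPKM of the coding (circles) and retained-intron (squares) transcript of Lbp in LPS and Control on a log axis, with lines at group means. The coding form of Lbp is higher in every LPS library than in every Control library, and the retained-intron form is lower.

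Lbp has a retained-intron transcript beside its coding one. That form, ENSMUST00000146600, listed for LPS and Control mice, was at 0.316, 0.0151, 0.0600 and 0.00783 FPKM in LPS and 0.862, 1.31, 0.612 and 0.623 FPKM in Control. Each LPS library was below each Control library. The Lbp gene values above leave this form out, and with it included the gene still rose (log2 fold change 2.45). That transcript was listed because of its Control level, so the difference is a description without a test. Itih4 was split between 2 transcripts, of which ENSMUST00000078490 held 64.4 ± 26.3% in LPS+XJDHT, 74.2 ± 13.3% in LPS and 43.5 ± 31.2% in Control, and no comparison passed (the smallest exact permutation p was 0.086).

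Close relatives of the members were taken as a list of 29 genes, of which 9 had values in all libraries and 7 were tested. After LPS 5 of the 7 rose and 1 fell, and the median log2 fold change was 2.06. The rises were of 3 neighbours of Serpina3n, of Saa1 and of Wfdc17. Serpina3f was at 15.6 ± 4.53 FPKM in LPS+XJDHT, 13.3 ± 1.12 FPKM in LPS and 0.141 ± 0.131 FPKM in Control (LPS against Control, log2 fold change 3.65, adjusted p = 4.0e-07). Serpina3g, a serpin of lymphoid and myeloid cells, averaged 20.3 ± 6.05 FPKM in LPS+XJDHT, 14.3 ± 4.22 FPKM in LPS and 0.190 ± 0.115 FPKM in Control (3.64, adjusted p = 1.7e-06). Serpina3m averaged 18.4 ± 7.74 FPKM, 11.2 ± 5.63 FPKM and 0.0450 ± 0.0562 FPKM in LPS+XJDHT, LPS and Control (3.44, adjusted p = 3.3e-05). The 3 serpins, Saa1 and Saa2 reached 1 FPKM in libraries of LPS-treated mice alone, so they entered the test through the groups in which they are high, and the calls of 4 of them and the list's median add no support.

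The liver-type serum amyloids stayed low in the heart. Saa1 ranged from 0 to 1.41 FPKM in LPS+XJDHT and from 0.706 to 9.48 FPKM in LPS and was listed at 0 in every Control library (LPS against Control, adjusted p = 0.016). Saa2 ranged from 0 to 3.73 FPKM in LPS+XJDHT and from 0 to 3.39 FPKM in LPS, was listed at 0 in Control and did not pass (adjusted p = 0.19). Wfdc17, a small secreted protein of the whey acidic protein family to which Slpi belongs, was at 30.7 ± 2.90 FPKM in LPS+XJDHT, 41.5 ± 12.1 FPKM in LPS and 9.58 ± 4.55 FPKM in Control (2.06, adjusted p = 0.00019). The one that fell was Itih5, a relative of Itih4, at 1.06 ± 0.323 FPKM in LPS+XJDHT, 0.926 ± 0.253 FPKM in LPS and 3.26 ± 0.126 FPKM in Control (-1.15, adjusted p = 9.6e-05). Serpina3c and Serpina3i had values but were too low to test, with LPS means of 0.923 and 1.42 FPKM against 0.20 and 0.0271 FPKM in Control. No relative was called between LPS+XJDHT and LPS.

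Further acute-phase proteins of the liver were represented by 5 tested genes of a list of 20. Of these 4 rose after LPS and 0 fell (median log2 fold change 2.15). Saa1, which rose, and Saa2, which did not pass, are also among the 5. Both reached 1 FPKM in libraries of LPS-treated mice alone, so the call of Saa1 and the list's median add no support. Hp, haptoglobin, which binds free haemoglobin, averaged 69.1 ± 25.2 FPKM in LPS+XJDHT, 74.4 ± 27.5 FPKM in LPS and 4.10 ± 2.99 FPKM in Control (4.03, adjusted p = 4.1e-05). Its lowest Control library was at 0.822 FPKM, so Hp entered the test only with LPS-treated libraries and its call adds no support. Cp, the copper-carrying ferroxidase ceruloplasmin, averaged 115 ± 30.9 FPKM, 119 ± 26.5 FPKM and 22.5 ± 0.535 FPKM in LPS+XJDHT, LPS and Control (2.32, adjusted p = 9.5e-06). Hamp, hepcidin, the hormone that restrains iron export, averaged 10.1 ± 4.25 FPKM in LPS+XJDHT, 12.2 ± 3.74 FPKM in LPS and 2.02 ± 1.08 FPKM in Control (2.15, adjusted p = 0.00055). Of 8 proteins that fall in plasma during inflammation 4 were tested, and in the heart 3 of them rose and 0 fell after LPS. Of these, Apoa1 and Rbp4 reached 1 FPKM in libraries of LPS-treated mice alone, so their calls add no support, and the third was Ahsg. The call of Rbp4 (adjusted p = 0.034) was lost with median-ratio scaling and without Control 1, Control 3, LPS 1, LPS 3 or LPS 4. Apoa1, the main apolipoprotein of high-density lipoprotein, was at 0.0726 ± 0.115 FPKM in LPS+XJDHT, 1.56 ± 0.594 FPKM in LPS and 0 in every Control library, and it was lower in LPS+XJDHT than in LPS (log2 fold change -1.23, adjusted p = 0.0056). Since it was tested through its LPS libraries alone, it had to be higher there than in both other groups. Summed small intestine markers had the same pattern, 2.22 ± 0.306 FPKM in LPS+XJDHT, 16.0 to 20.1 FPKM in LPS and 1.07 ± 0.459 FPKM in Control, and their part in the Apoa1 values was not tested.

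The signals that switch on acute-phase genes were read from 2 lists. Of 9 tested cytokines and receptors 7 rose and 1 was lower after LPS (median log2 fold change 0.92). Il6, the chief inducing cytokine, was at 4.46 ± 1.78 FPKM in LPS+XJDHT, 6.69 ± 4.68 FPKM in LPS and 0.0619 ± 0.0475 FPKM in Control (2.62, adjusted p = 0.00039). Il6 and Tnf reached 1 FPKM in LPS-treated libraries alone, so their calls add no support. Il1r1, the signalling receptor of interleukin 1, was at 9.37 ± 2.03 FPKM in LPS+XJDHT, 16.2 ± 1.96 FPKM in LPS and 2.44 ± 1.30 FPKM in Control (2.38, adjusted p = 1.2e-05). Tnfrsf1a, the main receptor of tumour necrosis factor, averaged 55.2 ± 5.58 FPKM, 51.4 ± 8.62 FPKM and 16.5 ± 0.922 FPKM in LPS+XJDHT, LPS and Control (1.57, adjusted p = 4.0e-06). Lifr, the receptor of leukaemia inhibitory factor, fell to 2.47 ± 0.505 FPKM in LPS+XJDHT and 2.48 ± 0.965 FPKM in LPS, against 6.94 ± 0.8999 FPKM in Control (-1.22, adjusted p = 0.00034).

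Of 9 tested transcription factors 7 rose and 0 fell (5 rose by limma-voom or with a pseudocount of 0.1), and the median was 1.20 on the log2 scale. The call of Relb was also lost in the fit of LPS and Control alone and with every annotated transcript. It was lost as well without Control 1, Control 2, Control 3, LPS 1, LPS 2 or LPS 4. The call of Rela was lost with median-ratio scaling, and Nfkb1 was called without LPS 4. Nfkbiz, the nuclear IkB-zeta that Lcn2 induction requires in macrophages, averaged 15.2 ± 2.22 FPKM in LPS+XJDHT, 15.6 ± 4.98 FPKM in LPS and 0.83 ± 0.957 FPKM in Control (3.30, adjusted p = 3.9e-05). Stat3, the factor downstream of interleukin 6, averaged 116 ± 20.8 FPKM, 117 ± 33.2 FPKM and 47.5 ± 4.25 FPKM in LPS+XJDHT, LPS and Control (1.25, adjusted p = 0.00027). Nfkb2 and Cebpd had log2 fold changes of 1.20 and 1.53 (adjusted p = 3.5e-05 and 0.00053). Cebpb, at 24.6 ± 5.51 FPKM in LPS+XJDHT, 26.5 ± 9.30 FPKM in LPS and 24.7 ± 1.34 FPKM in Control, did not pass (adjusted p = 0.91). Nfkbiz, Relb and Bcl3 were at 0 FPKM in their lowest Control libraries, so they entered the test only with LPS-treated libraries. Their calls and their part in the median add no support. Neither list had a gene called between LPS+XJDHT and LPS.

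Among receptors, partners and targets on which the members act, 6 of 15 tested genes rose after LPS and 0 fell, beside 26.6% of all genes that rose. The median was 0.56 on the log2 scale. Of the 6, Fpr2 and Mmp9 reached 1 FPKM in LPS-treated libraries alone, and their calls add no support. Tlr2 was at 0.444 FPKM in its lowest Control library. It too entered the test only with LPS-treated libraries, and its call adds no support. Fpr2, a receptor of serum amyloid A on leukocytes, averaged 5.60 ± 0.942 FPKM in LPS+XJDHT, 7.59 ± 0.941 FPKM in LPS and 0.0806 ± 0.0678 FPKM in Control (2.99, adjusted p = 8.3e-08). Tgfbr2, a receptor of transforming growth factor beta, averaged 32.5 ± 3.67 FPKM, 28.4 ± 3.85 FPKM and 9.17 ± 0.558 FPKM in LPS+XJDHT, LPS and Control (1.52, adjusted p = 3.1e-06). Mmp9, the protease that Lcn2 stabilises, and Tlr2, a receptor of bacterial lipoproteins, had log2 fold changes of 1.16 and 1.63 (adjusted p = 0.00030 and 0.00085). Of the pathway that Lbp feeds, Cd14 rose, at 7.04 ± 0.663 FPKM in LPS+XJDHT, 10.6 ± 2.84 FPKM in LPS and 5.70 ± 1.55 FPKM in Control (0.79, adjusted p = 0.0081). Tlr4 had 4.49 ± 2.01 FPKM in LPS+XJDHT, 5.30 ± 3.58 FPKM in LPS and 7.53 ± 0.828 FPKM in Control and did not pass (-0.63, adjusted p = 0.23), nor did Ly96, its co-receptor MD-2 (0.07, adjusted p = 0.85).

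Markers of cells that could make or carry these proteins were summed per library. The neutrophil list, 8 of 12 genes with values, summed to 75.6 to 153 FPKM in LPS+XJDHT, 80.0 to 118 FPKM in LPS and 1.25 to 2.73 FPKM in Control, and all 5 tested genes rose (median log2 fold change 3.49). Of these Ngp, Retnlg and Mmp8 reached 1 FPKM in LPS-treated libraries alone and had to be higher there, so their calls and the median add no support. S100a8 and S100a9 were at 0.321 and 0.572 FPKM in their lowest Control libraries. They too entered the test only with LPS-treated libraries, and their calls add no support. The rest of the list, Mpo, Elane, Cxcr2 and Ly6g, was not among the genes with values. Neutrophil granules hold Lcn2, Pglyrp1 and Slpi, and the part of neutrophils in their rise was not tested. The fibroblast sum was 1234 ± 208 FPKM in LPS+XJDHT, 1188 ± 102 FPKM in LPS and 993 ± 93.5 FPKM in Control, and that of monocytes and macrophages 228, 281 and 275 FPKM on average in LPS+XJDHT, LPS and Control. Between LPS and Control the neutrophil, fibroblast and cardiomyocyte sums did not overlap (exact permutation p = 0.029 each, the smallest that 4 against 4 allows, and 0.086 adjusted over 27 tests). The monocyte and macrophage sums did overlap (exact permutation p = 0.94). Of 11 hepatocyte markers 2 had values, Ahsg and Cyp2e1, while albumin and the other 8 were not analysed here. Their sum was 23.9 ± 7.61 FPKM in LPS+XJDHT, 10.3 to 17.7 FPKM in LPS and 9.16 ± 2.53 FPKM in Control. It was mostly Ahsg, which is also among the proteins that fall in plasma during inflammation. Mean Ahsg was 22.5, 13.4 and 6.43 FPKM in LPS+XJDHT, LPS and Control. Mean Cyp2e1 went the other way, at 1.43, 1.27 and 2.74 FPKM in the same order. Ahsg rose after LPS (limma adjusted p = 0.0074) and Cyp2e1 did not pass (0.081). None of 4 lung markers had values. In the fit over all genes 5 of 8 tested cardiomyocyte markers fell after LPS, 4 of 9 fibroblast markers rose and 2 fell (2 rose and 3 fell with median-ratio scaling), 1 of 9 monocyte and macrophage markers rose, and none of 6 endothelial or 3 mesothelial markers was called. Over the alternatives the monocyte and macrophage list had 1 to 5 genes that rose, with 5 under sample quality weights or without LPS 2. Lyz2 and Csf1r were called in neither direction between LPS and Control with all libraries. Both fell with median-ratio scaling and without LPS 3 or LPS 4, and Csf1r also with limma-voom and with the limit of 5 FPKM. In LPS+XJDHT against Control both fell with all libraries (limma log2 fold changes -1.43 and -0.81, adjusted p = 0.048 and 0.012), while 1 marker of the list rose. Pecam1, an endothelial marker, rose with sample quality weights, in the fit of LPS and Control alone, without LPS+XJDHT 2 and with every annotated transcript. The part of these cell types in the members' values was not tested.

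**Figure D5:**
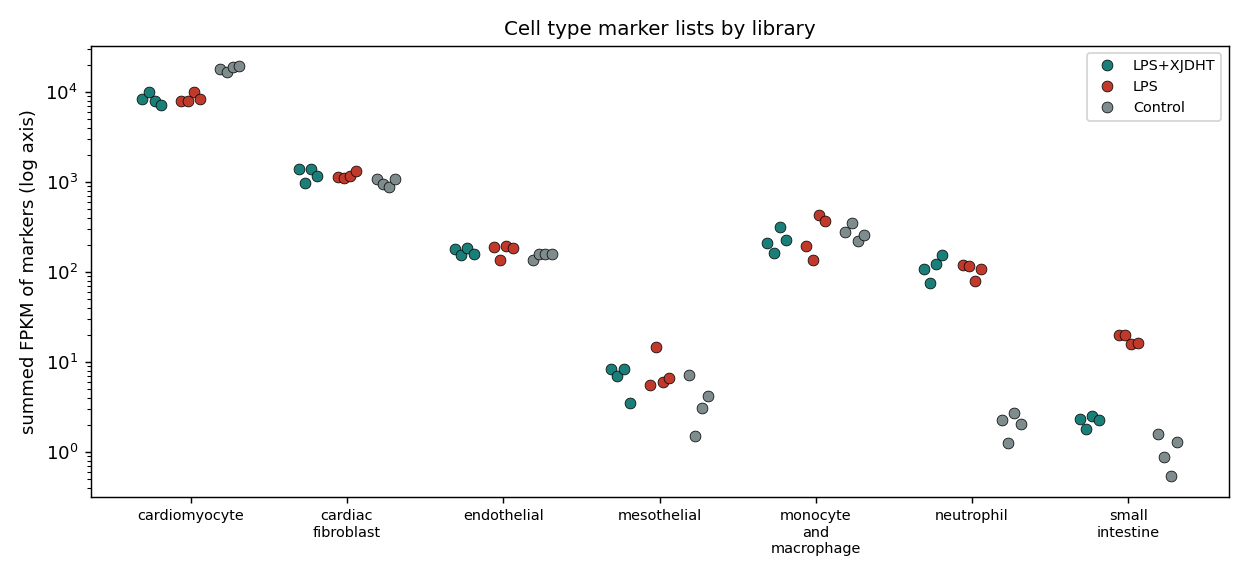
Summed FPKM of 7 cell type marker lists in every library on a log axis, with LPS+XJDHT, LPS and Control from left to right. Neutrophil sums lie between 75.6 and 153 FPKM in LPS+XJDHT and between 1.25 and 2.73 FPKM in Control, and small intestine sums are high in LPS alone (16.0 to 20.1 FPKM).

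Outside the 10, the genes whose profile over the 12 libraries lay nearest to the members' mean profile were Mmp3, Mir22hg, Serpina3f, Timp1 and Ccl2. Nearness was the root mean square distance on the log2(FPKM + 1) scale after each gene was centred on Control, and it was 0.197 for Mmp3 and 0.341 for Ccl2. The members themselves lay between 0.391 for Lrg1 and 4.32 for Saa3, since the mean averages large and small rises. Mmp3, stromelysin-1, was at 108 ± 21.5 FPKM in LPS+XJDHT, 102 ± 15.7 FPKM in LPS and 5.09 ± 1.72 FPKM in Control. Timp1, an inhibitor of matrix metalloproteinases, was at 139 ± 29.0 FPKM in LPS+XJDHT, 143 ± 40.5 FPKM in LPS and 6.68 ± 2.96 FPKM in Control.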

How the data were processed

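Groups came from the labels, which number 4 mice in each. Each deposited file gives 1 value for each transcript of 1 library. No header names the unit, which was read from the values as FPKM made by the authors: value times transcript length gave whole fragments, within 0.1, for 99.1% to 99.5% of values under 30 fragments. Build mm10 and limma are named, without a role, per the submitters' processing notes. The aligner is not given in the sources used here, nor is the quantifier. A transcript is listed where a group mean reached about 0.5 FPKM, separately for the LPS+XJDHT files. FPKM were summed per gene over the 24723 transcripts listed in all files and annotated in GENCODE M21. Genes that reached 1 FPKM in 4 or more libraries were tested with limma 3.58.1 (R 4.3.3) on log2(FPKM + 1), 1 mean per group, two-sided, adjusted over 11509 genes. Marker sums, transcript shares and correlations used exact permutation tests (SciPy 1.17.1, NumPy 2.4.6), with pandas 2.3.3 and matplotlib 3.10.9 in Python 3.11.15. The fit was tested on simulated data.

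The members and gene lists were chosen with earlier results of these data known. Named genes are all members and, of each gene list, up to 4 tested genes with the smallest adjusted p for LPS against Control, those called against their list, and the 5 nearest genes by profile; the other list genes named were chosen after their values were seen. The alternatives tried were pseudocounts of 0.1 and 0.5, no filter or one at 5 FPKM, limma-voom on recovered fragments, median-ratio scaling, weights for library quality, a fit of the 2 groups alone, all transcripts of the LPS and Control files, and leaving out each library. Promoter sequences are from RefSeq (GRCm38.p6). Some genes were not analysed here.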

Additional observations from a re-analysis of the deposited data

Results flagged for a closer look

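In each of the 30 combinations of a member and a group, the library farthest from the others was compared with the range of its group by Dixon's ratio, its gap to the nearest library over the group's whole range. Chance puts about 1 in 20 groups beyond the 95% limit, and 2 of the 30 were beyond it. Saa3 in LPS+XJDHT 2 was 1668 FPKM, against 2753 to 2858 FPKM in the other 3 LPS+XJDHT libraries (ratio 0.911). This library also had the lowest Lbp, Pglyrp1 and Itih4 of the LPS-treated mice and a sum of Y-linked genes of 0.205 FPKM. Pglyrp1 in Control 4 was 0.578 FPKM, against 0.153 to 0.211 FPKM in the other 3 Control libraries (ratio 0.863), at a level where few fragments were counted.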

How the results depend on the processing

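In LPS against Control the 9 members called kept their direction and their call under every alternative in which they were tested. The limit of 5 FPKM left 6 of the 10 members to test, and all transcripts of the LPS and Control files left 8. Orm1, Pglyrp1 and Slpi are among the 9 and entered the test through LPS-treated libraries alone, so their kept calls add no support. Ptx3, also among the 9, entered only with such libraries, and its kept call adds no support either. The size of the low genes' change depended on the scale, from 1.06 to 4.39 for Orm1, 0.90 to 4.95 for Slpi and 2.16 to 4.35 for Pglyrp1, since a pseudocount of 1 compresses low values. Median-ratio scaling moved the median of all genes from 0.16 to 0.00 and the split of calls to 2132 higher and 2131 lower, against 3063 and 1384 as deposited; for LPS+XJDHT against Control it gave 1954 and 2057, against 3278 and 1234. In LPS+XJDHT against Control the one changed call was Itih4 without LPS+XJDHT 2. Genes called between LPS+XJDHT and LPS numbered 13, with 43 without a filter and 1 with a limit of 5 FPKM, where the number of genes tested changes too. In that comparison no member was called under any alternative, and signs turned. Leaving out each library gave log2 fold changes from -0.19 to 0.089 for Saa3, -0.25 to 0.039 for Lcn2, -0.13 to 0.17 for Serpina3n, -0.15 to 0.14 for Lbp, -0.44 to 0.12 for Ptx3, -0.14 to 0.46 for Orm1 and -0.088 to 0.18 for Slpi. Median-ratio scaling gave -0.012 for Serpina3n, and sample quality weights gave 0.036 for Ptx3 and 0.0066 for Pglyrp1; beyond the left-out libraries the cause was not tested. No paired analysis was possible because the labels give each mouse a number of its own that no other group shares, and the library numbers 1 to 4 used here are only names. With 4 mice per group, differences smaller than the intervals given cannot be seen, and Orm1 and Slpi rest on 26 fragments each over the Control libraries.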
